A study of Mus musculus with 14 samples.

Results

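Population P4 of the virgin mouse mammary gland was compared with population P6 of the same gland. The comparison holds the 4 arrays that the labels name as virgin P4 (2) or virgin P6 (2), of 14 arrays in the series. All 4 carry RNA of wild-type virgin mice of the strain FVB/N-J, with no transgene or treatment named. P4 cells were sorted as CD24+CD29hi and are labelled as enriched for mammary stem cells (MaSC); P6 cells were sorted as CD24lo and are labelled as differentiated mammary epithelial cells (MEC), with no enrichment. The labels give no age and say neither how many animals were pooled nor whether the 2 arrays of a population came from separate animals. The p-values measure the spread between the 2 arrays of a group, pooled over the 6 wild-type groups (12 arrays), pregnant ones included. That pooled spread may therefore be only technical. The design text sets populations enriched for stem cells, P4 among them, against the others. The remaining 10 arrays hold virgin P5 (2), pregnant P4, P5 and P6 (2 each) of the same strain, and 1 array each of the GFPhi and GFPlo populations of virgin L2G85 transgenic mice.

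Each array set Cy5-labelled RNA of sorted cells against a Cy3-labelled common reference, a mix of RNA from 11 mouse cell lines. A level below is the log2 ratio of the cells to that mix for 1 gene, and levels of different genes cannot be ranked against each other. A level of 0 means as much as in the mix only where the gene is bright. The offset of 50 in the background correction pulls the levels and differences of dim genes toward 0. A difference is the P4 mean minus the P6 mean of these log2 ratios, positive where P4 is higher, with its standard error (SE). Adjusted p-values are from limma with Benjamini-Hochberg adjustment over all genes tested, at a threshold of 0.05, and n is 2 arrays in each population throughout.

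The mammary duct has an inner layer of luminal cells, which make milk, and an outer layer of basal or myoepithelial cells, which contract in response to oxytocin and rest on a basement membrane. Fibroblasts in the surrounding stroma make fibrillar collagen, proteoglycans and many of the growth factors to which the epithelium responds. In transplantation work, cells able to regrow a gland were found among CD24-positive cells with high CD29 (integrin beta 1), a gate that also holds myoepithelial cells.

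Median Cy5 brightness lay between 88.24 and 159.3 on the 4 arrays, where the local background was 33 to 33.5. The share of probes well above background was 73.9% at the lowest and 82.9% at the highest. Over all genes the 2 P4 arrays correlated at 0.948 and the 2 P6 arrays at 0.908, against 0.658 to 0.688 between a P4 and a P6 array; genes are not independent replicates. Replicate 1 of both populations lay on slide 1 and replicate 2 of both on slide 2, so each slide gives its own difference.

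Of 23646 genes tested, 2456 (10.4%) passed the test. P4 was higher for 1159 of them (4.9% of genes tested) and P6 for 1297 (5.49%). The largest differences lay more often on the P6 side: 223 genes were at least 8-fold higher in P6 and 130 at least 8-fold higher in P4. For 2455 of the 2456 genes the populations did not overlap, which passing the test nearly fixes; over all 23646 genes 49.6% did not overlap and 66.5% had the same sign on both slides. Without P4 replicate 1 the count was 1413, without P4 replicate 2 it was 1304, and without P6 replicate 1 or 2 it was 1653 or 1669. With the replicate number as a block, 5183 genes passed, 2743 higher in P4 and 2440 higher in P6. List counts given below with the block are to be read against these totals of 23646, and those without it against 4.9% and 5.49%. With local backgrounds taken as given, extreme values included, 1698 passed, 1119 higher in P4 and 579 higher in P6. The median difference over all genes tested was 0.035.

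**Figure D1:**
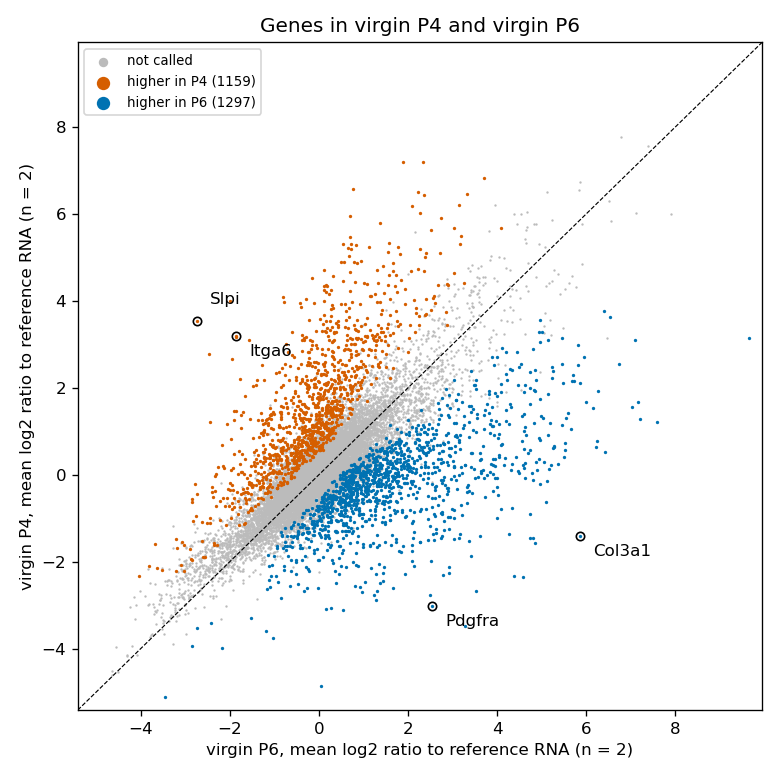
Mean log2 ratio to the reference RNA in virgin P6 (horizontal axis) and virgin P4 (vertical axis, n = 2 arrays each) for the genes tested. Orange points are the 1159 genes higher in P4, blue points the 1297 higher in P6 and grey points the rest; labels mark the 4 marker genes Slpi, Itga6, Col3a1 and Pdgfra, which lie far from the diagonal.

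The 4 marker genes separated the populations. Slpi, a secreted inhibitor of leukocyte proteases, stood at 4.12 and 2.96 in P4 and -2.33 and -3.16 in P6. Itga6, the integrin alpha 6 chain that anchors basal cells to laminin, stood at 3.26 and 3.13 in P4 and -1.32 and -2.38 in P6. Both P4 arrays lay above both P6 arrays for either gene. The differences were 6.29 (SE 0.87, adjusted p = 0.00212, 78.1-fold) and 5.05 (SE 0.383, adjusted p = 9.48e-05, 33.1-fold). A second, dimmer Slpi probe differed by only -0.07.

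The stromal markers ran the other way. Col3a1, the chain of type III collagen, stood at -1.32 and -1.5 in P4 and 6.04 and 5.67 in P6. Pdgfra, the PDGF receptor alpha found on fibroblasts, stood at -2.82 and -3.21 in P4 and 2.97 and 2.12 in P6. Again no array of one population reached the range of the other. The differences were -7.27 (SE 0.816, adjusted p = 0.000691, 154-fold higher in P6) and -5.56 (SE 0.351, adjusted p = 3.84e-05, 47.2-fold higher in P6). Other, dimmer probes of the same genes differed by as little as -0.92 for Col3a1 and -1.16 for Pdgfra, and the mean over all probes gave -3.67 and -3.36; both calls held there. In bulk samples like these, fewer cells of a type and less RNA per cell cannot be told apart.

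Of the genes used for sorting, Cd24a was higher in P4, at 2.03 and 1.49 in P4 and -0.18 and -1.36 in P6 (difference 2.53, SE 0.385, adjusted p = 0.00342), the direction in which the gates were set. Itgb1, which encodes CD29, stood at -0.35 and -0.14 in P4 and -0.9 and -0.26 in P6 and did not pass (difference 0.33, adjusted p = 0.873).

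P6 is labelled as epithelial, and its fibroblast markers go against that label, while its luminal markers were mixed. Of 16 fibroblast markers tested, 14 were higher in P6 and none in P4. The luminal keratins Krt8 (-1.15 and -1.01) and Krt18 (-0.48 and -1.32) were below the reference mix on both P6 arrays, whereas they stood at 3.32 and 4.31 and at 4.52 and 3.92 in virgin P5, a population labelled as enriched for luminal progenitors. The whole list of 15 luminal progenitor and milk genes had array medians of 1.49 and 1.21 in P6 against 2.03 and 1.63 in P4, and that of 11 hormone-sensing genes 1.28 and 0.56 in P6 against 1.33 and 1.13 in P4. Of single genes, Elf5, a luminal regulator, stood at 3.93 and 3.02 and Krt5, a basal keratin, at 2.02 and 1.15. The population is called P6 below, by its gate.

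Fibroblast markers had a median difference of -3.99. Dpp4 and Pi16, which mark fibroblasts of many tissues, were 30.1-fold and 27.7-fold higher in P6, Dpt, a collagen-binding protein, 27-fold and the surface protease Fap 24.7-fold. Thy1 stood at -1.16 and -1.35 in P4 and 2.87 and 2.99 in P6 (difference -4.19, SE 0.29, adjusted p = 6.16e-05). Cd34, Clec3b, Scara5, Pdgfrb, Medag, Ly6c1, Vim and S100a4 were also higher in P6, with differences from -4.44 to -1.67. The 2 that did not pass were Gpx3 (-1.12, adjusted p = 0.0766; 0.0285 with the replicate block) and Cdh11 (-0.14, adjusted p = 0.839), although a dimmer Cdh11 probe gave -4.8.

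Interstitial collagens held the 2 largest differences on the P6 side, Col3a1 and Col1a2. Col1a2 stood at -2.35 and -2.36 in P4 and 4.43 and 4.74 in P6, and Col1a1 at -2.37 and -2.28 in P4 and 4.06 and 4.69 in P6; together these chains form type I collagen, the main fibre of the stroma. The differences were -6.94 (SE 0.468, adjusted p = 5.42e-05) and -6.7 (SE 0.655, adjusted p = 0.000329). The other Col1a2 probe gave -0.73. Of 19 collagens tested, 12 were higher in P6, with a list median of -3.2, among them Col5a1, Col5a2 and Col5a3 of type V and Col6a1, Col6a2 and Col6a3 of type VI. Col11a1, a chain of minor fibrils, and Col16a1 were higher in P4 instead. Col11a1 stood at 3.25 and 3.95 in P4 and 1.17 and 0.99 in P6 (difference 2.52, SE 0.298, adjusted p = 0.000924), and Col16a1 at 3.47 and 3.59 in P4 and 1.42 and 2.08 in P6 (difference 1.78, adjusted p = 0.00532). Col14a1 lay between 6.22 and 6.83 on all 4 arrays and did not pass. Col2a1, the cartilage collagen, was 85.7-fold higher in P6 on its brightest probe, while another of its probes gave 0.11.

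The enzymes that trim, modify and cross-link collagen lay on the same side: 10 of 22 were higher in P6 and none in P4. Pcolce2 and Pcolce, which speed removal of the procollagen C-propeptide, were 49.6-fold and 18.5-fold higher in P6. Adamts2, which removes the N-propeptide, was 13.8-fold higher. The cross-linkers Loxl1, Loxl2 and Lox and the hydroxylases P4ha2, P4ha1, P3h3 and Plod2 made up the rest. Serpinh1, the collagen chaperone, stood at 1.48 and 1.85 in P4 and 4.26 and 3.73 in P6 and missed the threshold (adjusted p = 0.0532; 0.0162 with the replicate block).

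Proteoglycans that coat collagen fibrils were higher in P6 for 5 of 10 tested, and 1 was higher in P4 (with the block 5 and 2). Lum stood at 3.21 and 3.07 in P4 and 9.83 and 9.47 in P6, and Dcn at 1.32 and 1.12 in P4 and 7.87 and 7.32 in P6, 91.1-fold and 82.7-fold higher in P6; a dimmer Dcn probe gave -0.44. Ogn, Omd and Aspn were the other 3 members of this kind. Fmod, which binds the same fibrils, was higher in P4, at 2.23 and 1.95 in P4 and -0.29 and 0.5 in P6 (difference 1.98, SE 0.313, adjusted p = 0.00415).

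Among 29 microfibril and matricellular genes, 18 were higher in P6 and 1 in P4 (with the block 21 and 2). Efemp1, a fibulin, stood at -3.04 and -3.93 in P4 and 3.74 and 2.84 in P6 (110-fold). Emilin2, Tnxb, Mfap5, Smoc2 and Fn1 (fibronectin) were 32.7-fold, 31.4-fold, 23.9-fold, 18.7-fold and 16.1-fold higher in P6. Ltbp2, which binds fibrillin, was the gene higher in P4, at 3.41 and 2.93 in P4 and -1.8 and -1.9 in P6 (difference 5.02, SE 0.425, adjusted p = 0.000155), although its other probe gave -0.01. Postn (periostin) lay between 5.63 and 6.57 on all 4 arrays and did not pass.

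**Figure D2:**
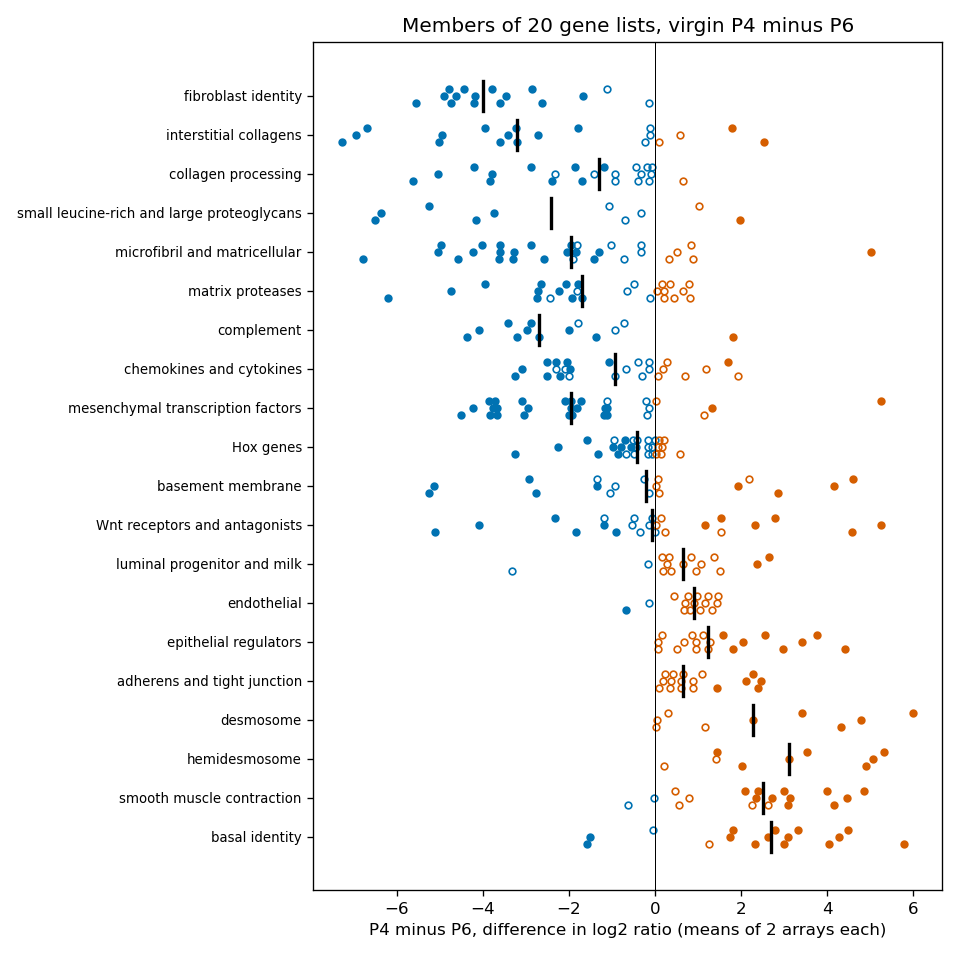
P4 minus P6 difference in log2 ratio for each tested member of 20 gene lists, 1 point per gene (difference of the means of 2 arrays each). Filled points passed an adjusted p of 0.05, open points did not, and the bar is the list's median. Fibroblast, collagen and complement genes lie mostly left of 0 (higher in P6), and basal, hemidesmosome, desmosome and contractile genes mostly right of it (higher in P4).

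Of 25 matrix proteases, 11 were higher in P6 and none in P4 (with the block 12 and 2). Mmp3, stromelysin 1, stood at -2.54 and -2.82 in P4 and 3.53 and 3.54 in P6 (74.1-fold), and cathepsin K (Ctsk) was 26.9-fold higher in P6. Mmp14 and the gelatinase it activates, Mmp2, were 6.34-fold and 4.69-fold higher. Of 19 genes listed as protease inhibitors, 9 were higher in P6, among them Timp1, Timp2 and Reck. Tfpi2 was not well above background on either P4 array and was at least 3.08-fold higher in P6. Serpinb5 (maspin) and Slpi were the 2 higher in P4, Serpinb5 at 6.38 and 6 in P4 and 2.32 and 1.85 in P6 (17.2-fold).

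P4 carried the adhesion genes of basal cells. Of 9 hemidesmosome genes tested, 7 were higher in P4 and none in P6, with a median of 3.11. Col17a1, the transmembrane collagen of the hemidesmosome, stood at 7.45 and 6.95 in P4 and 2.41 and 1.36 in P6. Itgb4, the partner of Itga6, stood at 4.45 and 3.99 in P4 and 0.86 and 0.54 in P6. The P4 arrays lay above the P6 arrays for both, with differences of 5.32 (SE 0.509, adjusted p = 0.000291) and 3.52 (SE 0.665, adjusted p = 0.0107). Lamb3 and Lama3, chains of the laminin that this integrin binds, were 29.8-fold and 8.61-fold higher in P4.

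Basement membrane genes were divided: 4 of 18 were higher in P4 and 5 in P6 (with the block 5 and 8), and the median was -0.21. Among laminin alpha chains, Lama1 stood at 4.21 and 4.5 in P4 and 0.16 and 0.22 in P6, and Lama5 at 2.01 and 2.12 in P4 and -0.93 and -0.66 in P6. Lama2 stood at 0.13 and 0.35 in P4 and 5.03 and 5.7 in P6, and Lama4 at 2.22 and 2.87 in P4 and 5.16 and 5.77 in P6. The first pair was thus higher in P4 and the second in P6, with adjusted p of 0.000135, 0.0152, 7.47e-05 and 0.00292. Col4a6 was 24.1-fold higher in P4, whereas Col4a1 and Col4a2, the type IV chains of most basement membranes, lay between 1.87 and 3.68 on all 4 arrays and did not pass. Nid1 and Nid2, nidogens that link laminin to type IV collagen, were higher in P6 and the proteoglycan Agrn (agrin) in P4.

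Of 17 integrin chains outside the hemidesmosome, 14 did not pass; 1 was higher in P4 and 2 in P6, and with the block 3 in each. Itga11, a collagen receptor, stood at 0.9 and 0.4 in P4 and 6.64 and 5.79 in P6 (47.3-fold higher in P6). Itga3, a laminin receptor, was 3.71-fold higher in P4.

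Desmosomes tie epithelial cells to each other, and 5 of 9 of their genes were higher in P4 and none in P6. Perp, a desmosomal membrane protein, stood at 3.92 and 4.09 in P4 and -1.64 and -2.36 in P6 (difference 6, SE 0.261, adjusted p = 9.49e-06). Pkp1, Pkp3 and Dsp were 27.4-fold, 20-fold and 10.7-fold higher in P4.

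Adherens and tight junction genes differed less. Of 17 tested, 5 were higher in P4 and none in P6, with a median of 0.64; with the replicate block 10 were higher in P4. Among them were Cdh1 (E-cadherin, difference 2.47), F11r (2.27) and Epcam (2.11). The claudins Cldn3, Cldn4, Cldn7 and Cldn8 differed by 0.89, 0.42, 0.87 and 0.37 and did not pass, but for Cldn3 with the block (adjusted p = 0.0277).

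Promoters of the junction genes are shown because E-boxes of the form CACCTG are known to be bound by Zeb and Snail repressors. Transcripts of Zeb1, Zeb2 and Snai1 are described with the regulators. Whether these repressors acted on any gene here was not tested. Snai2, also of the Snail family, is counted with the basal identity genes and was not among those higher in P6. RefSeq promoters (GRCm38.p6, the 250 bases before the start) were at hand for 12 of the 17 genes. Of these, 7 (58.3%) held CACCTG on either strand: F11r and Epcam, called higher in P4, and Cldn4, Cldn7, Crb3, Ocln and Tjp3, not called. Of the 27025 genes with a promoter, 19.4% held CACCTG. Of 10 epithelial regulators with a promoter 5 held it, of 10 fibroblast genes 1 and of 15 interstitial collagens 2. Lists with other directions held it too: of 10 hormone-sensing luminal genes, divided between the populations, 6 held it, of 13 protease inhibitors, more often higher in P6, 7 did, and of 14 contractile genes, higher in P4 where called, 2 did. The junction genes called higher in P4 that had a promoter were F11r (chr1:171437311-171437560, plus strand) and Epcam (chr17:87635729-87635978, plus strand); Slpi (chr2:164356508-164356757, minus strand), with the largest difference on the P4 side, is added. Each is printed 5′ to 3′ with CACCTG, read on either strand, in capitals.
F11r: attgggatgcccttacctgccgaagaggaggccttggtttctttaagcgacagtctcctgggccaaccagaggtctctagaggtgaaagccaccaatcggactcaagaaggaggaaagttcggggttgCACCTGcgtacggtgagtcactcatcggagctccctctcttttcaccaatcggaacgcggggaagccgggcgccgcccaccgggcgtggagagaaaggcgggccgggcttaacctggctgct
Epcam: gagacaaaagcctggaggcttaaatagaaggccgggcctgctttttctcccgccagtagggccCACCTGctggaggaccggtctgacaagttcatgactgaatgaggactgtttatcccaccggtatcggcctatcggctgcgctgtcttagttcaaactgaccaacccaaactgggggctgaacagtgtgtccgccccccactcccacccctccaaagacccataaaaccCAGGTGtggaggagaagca
Slpi: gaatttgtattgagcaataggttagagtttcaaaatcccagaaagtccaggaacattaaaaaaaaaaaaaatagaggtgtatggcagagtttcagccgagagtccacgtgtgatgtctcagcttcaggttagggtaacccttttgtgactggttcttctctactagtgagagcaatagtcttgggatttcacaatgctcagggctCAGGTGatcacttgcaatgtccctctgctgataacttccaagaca
A match describes these letters and is not a bound site.

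Promoters of 2 collagens that led the P6 side are shown for contrast. Col1a2 (chr6:4505368-4505617, plus strand) has CCAAT in capitals, read on either strand, a motif in 37.5% of all genes and in 4 of the 15 collagens. Col3a1 (chr1:45311288-45311537, plus strand) has TATAAA in capitals, read on either strand, found in 14.3% of all genes and in 2 of the 15 collagens.
Col1a2: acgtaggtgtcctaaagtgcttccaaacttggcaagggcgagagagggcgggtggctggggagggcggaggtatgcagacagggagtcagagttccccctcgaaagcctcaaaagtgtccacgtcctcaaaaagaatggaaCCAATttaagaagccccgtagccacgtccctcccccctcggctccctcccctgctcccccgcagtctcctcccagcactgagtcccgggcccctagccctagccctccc
Col3a1: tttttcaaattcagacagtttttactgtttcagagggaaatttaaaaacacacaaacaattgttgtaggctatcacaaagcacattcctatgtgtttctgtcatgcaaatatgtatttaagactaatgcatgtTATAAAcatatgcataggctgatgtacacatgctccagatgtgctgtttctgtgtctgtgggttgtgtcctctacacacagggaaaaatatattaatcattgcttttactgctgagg

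Of 16 basal identity genes 12 were higher in P4 and 2 in P6, with a median of 2.7. Trp63, the p63 regulator of basal cells, stood at 6.31 and 6.82 in P4 and 1.25 and 0.3 in P6 (difference 5.79, SE 0.39, adjusted p = 5.42e-05); 1 of its 3 probes gave -0.03. The basal keratins Krt15, Krt14, Krt5 and Krt17 were 16.5-fold, 8.49-fold, 8.01-fold and 6.13-fold higher in P4. Lgr5, a receptor of R-spondins, stood at 4.45 and 4.34 in P4 and 1.09 and 1.05 in P6 (adjusted p = 1.18e-05). Ngfr and Procr, both used as markers within the basal layer, were higher in P6. Ngfr stood at 1.81 and 2.13 in P4 and 3.39 and 3.68 in P6 (adjusted p = 0.00517), and Procr at 1.03 and 1.29 in P4 and 2.9 and 2.44 in P6 (adjusted p = 0.00158).

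Contractile genes gave 11 of 18 higher in P4 and none in P6, with a median of 2.5. Cnn1 (calponin) stood at 7.47 and 6.93 in P4 and 2.56 and 2.12 in P6, and Acta2 (smooth muscle actin) at 4.41 and 4.11 in P4 and -0.43 and 0.64 in P6. The populations did not overlap. The SE draws on all 6 wild-type groups, and for Cnn1 the pregnant P4 arrays stood at 4.12 and 8.13. The differences were 4.86 (SE 1.06, adjusted p = 0.0214) and 4.15 (SE 1.07, adjusted p = 0.0438). Both calls were lost when any 1 of the 4 arrays was left out (adjusted p up to 0.13 and 0.214). Oxtr, the oxytocin receptor, was 8.52-fold higher in P4, with Tagln, Tpm2, Synm, Mylk, Actg2, Tpm1, Lmod1 and Smtn. Myh11, the smooth muscle myosin, stood at 6.4 and 6.02 in P4 and 3.2 and 4.7 in P6 and did not pass (adjusted p = 0.146; 0.0295 with the replicate block).

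**Figure D3:**
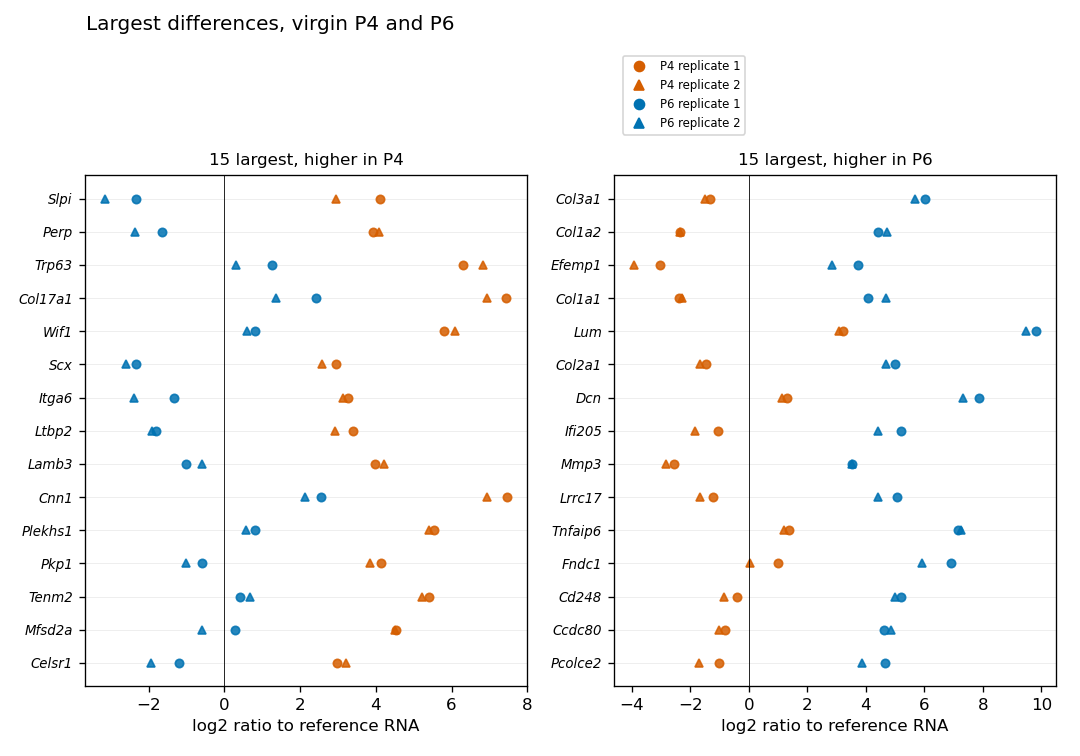
Log2 ratio to the reference RNA of the 15 genes with the largest differences on each side, 1 point per array (orange P4, blue P6; circle replicate 1, triangle replicate 2). For every gene shown the 2 P4 points and the 2 P6 points do not overlap.

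Several genes outside the lists were among the 15 with the largest differences. In P4 these were the pleckstrin-domain gene Plekhs1 (27.6-fold), the teneurin Tenm2 (27.4-fold), the lipid transporter Mfsd2a (25.6-fold) and the planar polarity cadherin Celsr1 (25.4-fold). In P6 they were Ifi205, Lrrc17, Tnfaip6, which binds hyaluronan, Fndc1, Cd248 (endosialin) and Ccdc80, 76.6-fold to 49.8-fold higher; another Fndc1 probe gave -0.41.

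Regulators of epithelial identity gave 8 of 19 genes higher in P4 and none in P6, with a median of 1.23; with the replicate block 16 were higher in P4. Tfap2c stood at 5.66 and 5.93 in P4 and 1.37 and 1.37 in P6 (difference 4.42, SE 0.38, adjusted p = 0.000165). Grhl2, Spint2, Klf5, St14, Ovol1 and Esrp1 were also higher, with differences from 1.58 to 3.41. Of 11 Sox genes, Sox9 and Sox10 passed, 5.81-fold and 5.52-fold higher in P4; with the block 4 did.

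Mesenchymal regulators gave 22 of 30 genes higher in P6 and 2 in P4, with a median of -1.94. Twist1 stood at -2.05 and -1.93 in P4 and 2.22 and 2.81 in P6, and Zeb2 at -0.68 and -0.9 in P4 and 3.48 and 2.49 in P6. The differences were -4.5 (SE 0.277, adjusted p = 3.36e-05) and -3.77 (SE 0.35, adjusted p = 0.000248). Tbx15, Twist2, Runx1t1, Prrx1, Tbx18, Prrx2, Ebf2, Ebf1 and Zeb1 had differences from -4.24 to -2.96, and Snai1 one of -1.11. Tcf21 was not well above background on either P4 array and was at least 2.31-fold higher in P6. The 2 genes higher in P4 are known as tendon regulators: Scx stood at 2.96 and 2.59 in P4 and -2.33 and -2.61 in P6 (37.9-fold) and Mkx was 2.51-fold higher.

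Hox genes, which pattern the body axis, gave 9 of 28 higher in P6 and none in P4. Hoxc9 stood at -2.98 and -3.19 in P4 and 0.21 and 0.12 in P6 (9.56-fold, adjusted p = 1.18e-05), followed by Hoxc6, Hoxa10 and Hoxa7.

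Luminal genes separated P4 from P6 in few cases. Of 15 luminal progenitor and milk genes, 2 were higher in P4, Krt8 at 1.46 and 1.11 in P4 and -1.15 and -1.01 in P6 and Lcn2 (6.27-fold), and the median was 0.64; with the replicate block 5 were higher in P4 and 1, Aldh1a3, in P6. Aldh1a3, a retinal dehydrogenase, stood at 3.29 and 2.99 in P4 and 6.92 and 6 in P6, short of the threshold without the block (adjusted p = 0.0626; 4.77e-05 with it). Of 11 genes of hormone-sensing luminal cells, Gata3 and Prom1 were higher in P4 and Esr1 and Ly6a in P6. Esr1, the estrogen receptor, stood at 1.64 and 1.13 in P4 and 4.74 and 2.69 in P6 (adjusted p = 0.0389).

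Most ligands and both receptors of the PDGF pathway lay on opposite sides. Pdgfa stood at 2.08 and 1.98 in P4 and -1.14 and -0.58 in P6, Pdgfb at 2.11 and 2.37 in P4 and -0.25 and -0.77 in P6 and Pdgfc at 1.42 and 1.37 in P4 and -0.64 and -1.08 in P6. All 3 ligand genes were higher in P4, by 2.89, 2.75 and 2.26 (adjusted p = 0.00192, 0.00441 and 0.00321). Both receptors were higher in P6, Pdgfra as given above and Pdgfrb at 0.47 and 0.45 in P4 and 3.73 and 4.37 in P6. The fourth ligand, Pdgfd, was also higher in P6 (5.89-fold).

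Neurotrophin genes were not a list of their own. Ntrk2, the receptor TrkB, stood at 2.54 and 2.54 in P4 and 7.2 and 6.29 in P6 (difference -4.21, SE 0.556, adjusted p = 0.00167). That call was lost with the scanner's log ratios (-3.22, adjusted p = 0.129) and with local backgrounds as given (-2.39, adjusted p = 0.0882), and another Ntrk2 probe gave -0.37. Its ligands Bdnf and Ntf5, both chosen after their values were seen, were higher in P4: Bdnf stood at 2.45 and 2.87 in P4 and -1.71 and -2.2 in P6 and Ntf5 at 3.44 and 3.11 in P4 and -0.57 and -0.63 in P6. The differences were 4.61 (adjusted p = 0.000124) and 3.88 (adjusted p = 1.37e-05). Ntrk3, the receptor of Ntf3, was 3-fold higher in P4.

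Fgf10, Fgf7 and Igf1, secreted factors known to act on mammary epithelium, were higher in P6. Fgf10 stood at -1.08 and -1.58 in P4 and 2.69 and 2.55 in P6, Fgf7 at -2.28 and -2.95 in P4 and 0.55 and -0.57 in P6 and Igf1 at -1.19 and -1.17 in P4 and 2.72 and 2.29 in P6. The P6 arrays lay above the P4 arrays for each, with differences of -3.95, -2.61 and -3.68 (adjusted p = 0.000312, 0.0255 and 0.000617). Fgfr2, which binds Fgf7 and Fgf10, did not pass (1.4, adjusted p = 0.226; 0.00928 with the replicate block), nor did Igf1r (0.77, adjusted p = 0.612; 0.0299 with the block). Vegfd and Fgf18 were 18-fold and 12-fold higher in P6, and Kitl, the ligand of Kit, 3.37-fold higher in P4. Over all 29 growth factor ligands 4 were higher in P4 and 9 in P6.

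Of 22 growth factor receptors 4 were higher in each population (with the block 7 in P4 and 5 in P6). Egfr and Axl were 3.71-fold and 3.34-fold higher in P6, and Osmr and Lifr, receptors for cytokines of the interleukin 6 family, 4.83-fold and 3.3-fold higher in P4. Of 8 IGF-binding proteins and their proteases, Igfbp2 and the protease Pappa were higher in P4 and Igfbp6 in P6 (with the block 2 and 2). Igfbp2 stood at 2.87 and 3.45 in P4 and -0.42 and -0.14 in P6, and Pappa at 3.5 and 3.5 in P4 and 0.34 and 0.45 in P6. Igfbp6 ran the other way, at -0.9 and -1.22 in P4 and 2.72 and 2.92 in P6.

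**Figure D4:**
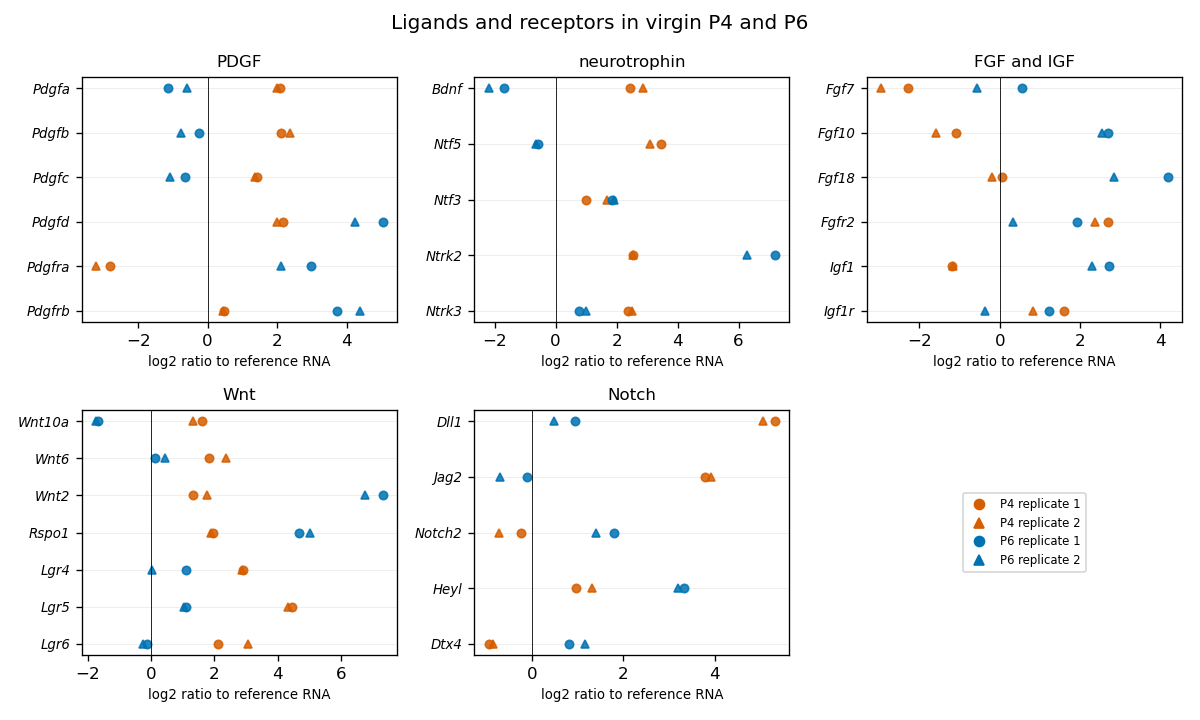
Log2 ratio to the reference RNA of ligand and receptor genes of the PDGF, neurotrophin, FGF and IGF, Wnt and Notch pathways, 1 point per array (orange P4, blue P6; circle replicate 1, triangle replicate 2). Pdgfa, Pdgfb, Pdgfc, Bdnf and Ntf5 are higher in P4 and Pdgfra, Pdgfrb and Ntrk2 in P6.

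Wnt genes fell on both sides. Of 18 ligands and R-spondins, 2 were higher in P4 and 4 in P6. Wnt10a stood at 1.6 and 1.31 in P4 and -1.69 and -1.74 in P6, and Wnt6 was 3.49-fold higher in P4. Wnt2 stood at 1.33 and 1.78 in P4 and 7.32 and 6.76 in P6 (difference -5.49, SE 0.455, adjusted p = 0.000146), and Rspo1 was 7.66-fold higher in P6. The R-spondin receptors Lgr5, Lgr6 and Lgr4 were 10-fold, 6.85-fold and 4.95-fold higher in P4.

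Over 23 Wnt receptors and antagonists 6 were higher in each population. Among secreted antagonists, Wif1 stood at 5.81 and 6.09 in P4 and 0.8 and 0.6 in P6, and Sostdc1 at 4.67 and 5.95 in P4 and 0.64 and 0.81 in P6; both were higher in P4. Sfrp4 stood at 0.68 and 0.14 in P4 and 5.61 and 5.4 in P6, and with Sfrp2, Sfrp1 and Dkk2 was higher in P6. With local backgrounds as given the Sfrp1 difference turned to 0.07.

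The Notch ligands Dll1 and Jag2 were higher in P4. Dll1 stood at 5.32 and 5.05 in P4 and 0.95 and 0.48 in P6, and Jag2 at 3.79 and 3.91 in P4 and -0.12 and -0.7 in P6; both are counted with the basal list. The differences were 4.47 (SE 0.307, adjusted p = 5.99e-05) and 4.26 (SE 0.364, adjusted p = 0.000162). Of 15 other pathway genes, the receptor Notch2, the target Heyl and Dtx4 were higher in P6 and none in P4 (with the block 3 and 1). Notch2 stood at -0.23 and -0.73 in P4 and 1.8 and 1.39 in P6 (adjusted p = 0.0038).

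In the TGF-beta and BMP pathways 11 of 30 genes were higher in P6 and 1, Bambi, in P4 (with the block 13 and 4). Several of the genes higher in P6 are secreted modulators: Bmper stood at -2.2 and -2.3 in P4 and 2.62 and 3.24 in P6 (36.3-fold), and Fstl1, Nbl1 and Chrdl1 were also higher. The ligands Gdf10 (15.8-fold) and Bmp4 (2.01-fold) and the receptor Tgfbr2 (8.46-fold) were higher in P6. The Gdf10 call was lost with the scanner's log ratios (-0.84, adjusted p = 0.649) and with local backgrounds as given (-2.13, adjusted p = 0.0594).

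Of 13 complement genes 9 were higher in P6 and 1 in P4. C1ra and C1s1, proteases of the first component, were 20.5-fold and 9.23-fold higher in P6. C3, the central component, stood at 0.73 and 0.68 in P4 and 4.26 and 3.98 in P6. Cd59a, which blocks the membrane attack complex, was 3.49-fold higher in P4. Of 25 chemokines and cytokines 9 were higher in P6, among them Ccl11, Ccl2, Il33 and Ccl7, and 1, Cx3cl1, in P4; with the replicate block 13 were higher in P6 and 3 in P4. Ccl11, which attracts eosinophils, stood at 2.54 and 2.87 in P4 and 5.85 and 6.05 in P6; with the scanner's own log ratios its difference was 0.01 (adjusted p = 0.999).

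Guidance genes gave 8 of 34 higher in P4 and 4 in P6 (with the block 11 and 7). Epha2, an ephrin receptor, stood at 1.4 and 1.55 in P4 and -1.98 and -1.84 in P6 (10.4-fold), and its ligand Efna1 was 2.5-fold higher in P4 as well. Plxnb1 and Sema6d were 4.39-fold and 3.28-fold higher in P4 and Slit3 6.72-fold higher in P6.

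Of 16 genes that handle retinoids 7 were higher in P6 and 2 in P4. Rbp4, which carries retinol in blood, stood at -0.16 and -0.42 in P4 and 4.21 and 3.78 in P6 (SE of the difference 1.13, adjusted p = 0.0465). Aldh1a1, which makes retinoic acid, Cyp26b1, which breaks it down, and the receptor Rarb were 4.8-fold, 4.55-fold and 3.28-fold higher in P6. Rdh10, an enzyme that oxidizes retinol, was among those higher in P4.

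Markers of other cell types were examined beside these results, and their part in them was not tested. Of 15 endothelial genes Tek was higher in P6 and none in P4 (with the block 1 and 2); array medians ran from 3.05 to 3.28 in P4 and 2.31 to 2.58 in P6. Of 7 pericyte genes none passed, and with the block 3 were higher in P6; array medians were 1.82 and 1.94 in P4 and 2.16 and 2.52 in P6. Of 14 leukocyte genes none passed, and with the block 3 were higher in P4; array medians were -0.19 and -0.4 in P4 and -0.54 and -1.44 in P6. Ptprc, the pan-leukocyte CD45, was far below the reference mix on all 4 arrays (-4.3 to -2.84).

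Of 12 adipocyte genes Lpl and Pparg were higher in P6 and none in P4 (with the block 2 and 1). Lpl, lipoprotein lipase, stood at 0.15 and 0.11 in P4 and 4.75 and 5.59 in P6; Fabp4 lay between 7.18 and 7.88 on all 4 arrays. Of 8 Schwann cell genes S100b was higher in P6 and Gfra3 in P4 (with the block 2 and 1). Of 10 skeletal muscle genes Acta1 was higher in P4 and Myh4 in P6, and array medians lay between -0.52 and -0.07. None of 5 erythroid genes passed, with or without the block.

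Of 15 early response and heat shock genes, whose transcripts are known to rise when tissue is dissociated, Dusp1 and Egr1 were 4.12-fold and 4-fold higher in P6; with the block 5 were. Array medians were 3.12 and 2.82 in P4 and 3.78 and 4.13 in P6. Cell cycle genes were mostly below the reference mix, with array medians from -2.84 to -1.5. Of 20 tested, Mcm4 was 2.22-fold higher in P4, with the block 4 genes were, and none was higher in P6. Over all genes tested 4.9% were higher in P4, near 1 of 20, and with the block 2743 of 23646 were.

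In all, 697 of 715 listed genes were tested, and 101 were higher in P4 and 195 in P6. Over all genes tested 4.9% were higher in P4 and 5.49% in P6. The lists were chosen with earlier results of these data known, so an excess over these shares is partly built in. Of the 223 genes named here as higher in P4 or P6, 129 passed under every alternative run. Leaving out 1 array ended the call of 48, and for 22 of these each of the 4 arrays did: Acta2, Axl, Cnn1, Efna1, Gata3, Hoxa10, Krt17, Krt8, Lama5, Lcn2, Lmod1, Mylk, Nid2, Ntrk3, Ovol1, Pparg, Rbp4, Rdh10, Scd1, Sfrp1, Tek and Timp2, with adjusted p up to 0.0917 for Efna1 and 0.277 for Rdh10. The other 26 lost theirs to 1, 2 or 3 of the arrays: Adcy7, Cx3cl1, Dusp1, Egr1, Esr1, Esrp1, Fgf7, Gfra3, Hoxa7, Il33, Itgb4, Kitl, Krt5, Mcm4, Mkx, Nbl1, Ngfr, P4ha1, Pdgfd, Prom1, Snai1, Spint2, Synm, Tagln, Tpm1 and Tpm2, with adjusted p up to 0.0501 for Gfra3 and 0.28 for Snai1. Where a gene had several probes the brightest was used. Of the other probes of the genes called, 11.3% had a difference of opposite sign. Of 103 genes named as called from the lists and the largest differences that had several probes, 55 had a probe below 1 log2 unit in the same direction or turned. For Tek this was the probe used (-0.68), and another gave -1.95. Besides those given above, the 55 held Agrn, C3, Chrdl1, Col11a1, Col16a1, Col4a6, Col5a3, Cx3cl1, Dsp, Dtx4, Egfr, Esr1, Esrp1, Grhl2, Heyl, Igf1, Itga3, Itgb4, Kitl, Klf5, Lama2, Lama3, Lama4, Lgr4, Lgr6, Lifr, Mylk, Ngfr, Notch2, Osmr, Pdgfc, Prom1, Prrx1, Rdh10, Scara5, Sema6d, Sfrp1, Sox10, Sox9, St14, Tbx15, Tek, Tgfbr2, Tpm1, Vim and Zeb2. With the scanner's own log ratios 19 of the named calls were lost: Adcy7, Axl, Ccl11, Esr1, Gata3, Gdf10, Kitl, Lcn2, Lmod1, Myh4, Ntrk2, Oxtr, Pdgfd, Prom1, Rbp4, Rdh10, Sfrp1, Snai1 and Tek (adjusted p from 0.0553 to 0.999). With local backgrounds as given 33 were lost: Acta2, Adcy7, Axl, Bmp4, Ccl11, Chrdl1, Dkk2, Ebf1, Ebf2, Esr1, Esrp1, Fap, Gdf10, Heyl, Lama4, Mkx, Myh4, Mylk, Ngfr, Ntrk2, P3h3, Pdgfd, Pparg, Rarb, Rbp4, Reck, Rspo1, Scd1, Sfrp1, Snai1, Tcf21, Tek and Tfpi2 (0.0547 to 0.973). With median centring 56 were lost: Acta2, Actg2, Adcy7, Agrn, Axl, Bambi, Bmp4, Ccl7, Cd59a, Col16a1, Col5a2, Cx3cl1, Dtx4, Efna1, Epcam, Esr1, Fgf7, Fmod, Fn1, Gfra3, Hoxa10, Hoxa7, Hoxc6, Kitl, Lgr4, Lifr, Lox, Mcm4, Mkx, Mmp2, Mylk, Ngfr, Nid2, Notch2, P3h3, P4ha1, Pdgfc, Plod2, Pparg, Procr, Prom1, Rarb, Rbp4, Rdh10, Reck, S100a4, Scd1, Sema6d, Sfrp1, Smtn, Snai1, Sox9, Tek, Tpm1, Vim and Wnt6 (0.0514 to 0.786).

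The same comparison in pregnant mice came from 4 other arrays. There 2866 genes passed (12.1%). Of these, 1675 also passed in virgin mice in the same direction, which is 68.2% of the virgin and 58.4% of the pregnant calls, and 13 passed in opposite directions. The change of the difference between the conditions was itself tested, and 70 genes passed (0.296%). With 1 virgin array left out, between 12 (without P4 replicate 2) and 27 (without P6 replicate 2) passed, and with the replicate block 671 did. The first pregnant replicates of P4 and P6 were scanned apart, with 236 and 199 saturated spots against at most 2 on a virgin array. Per the file headers they were also read without the extended intensity range that was used for every virgin array. Values within scan 2, which holds the second replicates of both conditions, are therefore given as well, with no test. These arrays also entered the test by which the genes were picked, so the scan 2 values are no independent check of it. In that scan the pregnant P4 and P6 arrays lay on slides 2 and 4, while both virgin arrays lay on slide 2.

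The 5 genes whose difference was most positive in virgin relative to pregnant mice were Stc2 (5.66, adjusted p = 0.00071), Adcy7 (3.55, adjusted p = 0.00186), Cldn10 (3.5, adjusted p = 0.0139), Fibin (3.48, adjusted p = 0.0462) and Aldh1a1 (3.47, adjusted p = 0.00186). Within scan 2 the 5 changes were 5.75, 3.59, 3.63, 4.58 and 3.39, in the same order. Fibin no longer passed when any 1 virgin array was left out (adjusted p up to 0.646 over all alternatives), nor did Cldn10 without P4 replicate 2 or P6 replicate 1 (up to 0.128). Stc2, a secreted glycoprotein, stood at 2.03 and 1.51 in P4 and 1.29 and 1.06 in P6 in virgin mice and at -0.86 and -0.86 in P4 and 3.98 and 4.44 in P6 in pregnant mice. Aldh1a1 was higher in P6 in both conditions, with differences of -2.26 in virgin and -5.73 in pregnant mice.

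The 5 most negative were Krt19 (-4.18, adjusted p = 0.0247), Scd1 (-3.99, adjusted p = 0.0139), Lep (-3.96, adjusted p = 0.00573), Ppp1r12b (-3.63, adjusted p = 0.0216) and Tnni2 (-3.61, adjusted p = 0.0206). Within scan 2 these were -3.94, -3.99, -4.53, -3.2 and -3.28. Krt19, Ppp1r12b and Tnni2 no longer passed when any 1 virgin array was left out, nor Scd1 without either P4 array or P6 replicate 1 (adjusted p up to 0.136, 0.646, 0.167 and 0.349 over all alternatives). Krt19, a luminal keratin, stood at 1.8 and 1.21 in P4 and 0.58 and 0.31 in P6 in virgin mice and at 2.66 and 2.95 in P4 and -2.97 and -1.89 in P6 in pregnant mice. Lep, the adipocyte hormone, lay between 0 and 0.31 on the virgin arrays and at 3.92 and 4.78 in P4 and 0.21 and 0.01 in P6 in pregnant mice. In virgin P6, Lep was well above background on 1 of the 2 arrays. Tnni2, of fast skeletal muscle, stood at 3.79 and 4.31 in P4 and -0.6 and -0.11 in P6 in pregnant mice. Lgr5 and Pappa, 10-fold and 8.61-fold higher in virgin P4, differed by 0.36 and 0.3 in pregnant mice, and that change also passed (adjusted p = 0.0027 and 0.0027). It was lost for both with the scanner's log ratios, the series table and median centring, where the change fell to 0.99 for Lgr5 and 2.03 for Pappa at the lowest (adjusted p up to 0.965 and 0.283). Median centring also ended the calls of the 10 genes above other than Krt19 and Lep. Those of Stc2, Adcy7 and Aldh1a1 were included (adjusted p up to 0.056, 0.474 and 0.468 over all alternatives). The scanner's log ratios ended the calls of Cldn10, Fibin, Ppp1r12b and Lep (up to 0.16 for Lep). The series table ended the same calls and those of Scd1 and Tnni2, and the mean over probes those of Adcy7 and Ppp1r12b.

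**Figure D5:**
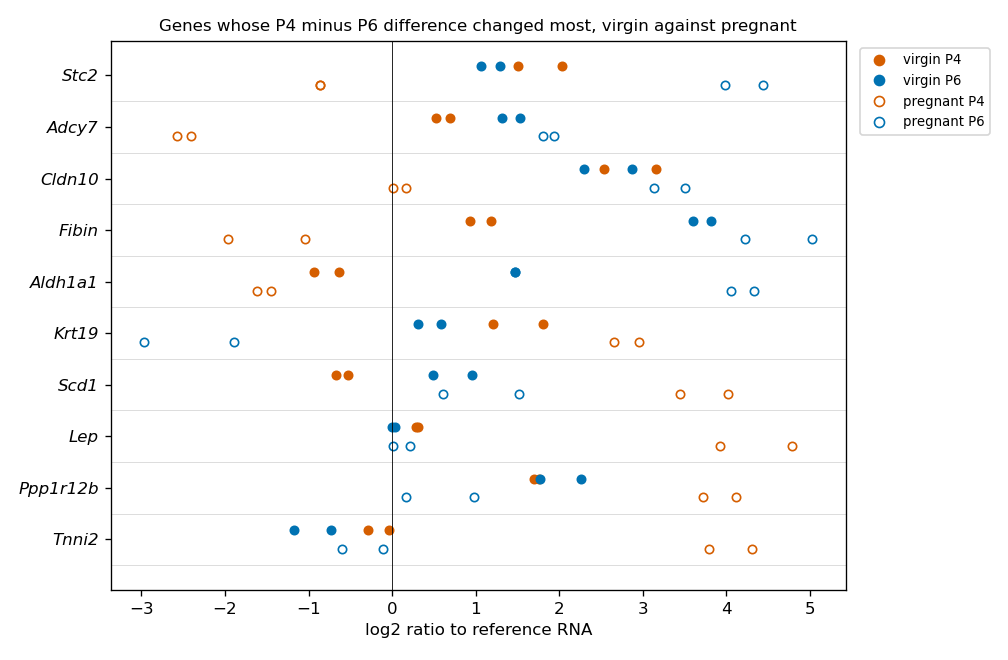
Log2 ratio to the reference RNA of the 10 genes whose P4 minus P6 difference changed most between virgin and pregnant mice, 1 point per array (orange P4, blue P6; filled virgin, open pregnant). In pregnant mice P4 lies above P6 for Krt19, Scd1, Lep, Ppp1r12b and Tnni2 and below it for Stc2, Adcy7, Cldn10, Fibin and Aldh1a1.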

How the data were processed

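The series holds 14 Agilent 2-colour arrays of sorted mammary cells, read with Agilent Feature Extraction 9.5.3.1 per the file headers. The authors deposited scanner files with Cy5 (sorted cells) and Cy3 (reference RNA) spot and local background intensity, the scanner software's log10 ratio, and flags for outlier, saturated and above-background spots. The authors also deposited a table of log2 ratios, which followed the scanner's own ratio on each array (r from 0.998 to 1); its further normalization is not given in the sources used here.

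From the intensities, the background was corrected by normexp with an offset of 50, after extreme local backgrounds were replaced by the array's median, and the dyes were normalized by loess within each array. Outlier spots were left out, and a probe was kept if its Cy5 signal was well above background on every array of at least 1 group. Each gene was represented by its brightest probe; names came from RefSeq by accession (22951 probes), symbol (6659) or synonym (3109), and 8455 probes kept the file's name. limma 3.58.1 in R 4.3.3 fitted 6 group means over the 12 wild-type arrays (6 residual degrees of freedom), with Benjamini-Hochberg adjustment and a threshold of 0.05. The number of arrays limits the precision. The fitting code was tested on simulated data. A gene not above background on either array of a population has only a bound, the bright mean against the higher of the dimmest signal well above background and the gene's own.

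Within virgin mice the same-numbered P4 and P6 arrays deviated together (correlation 0.313; P4 with P5 0.449, P5 with P6 0.681), and in pregnant mice likewise (0.676 for P4 with P6), while virgin and pregnant arrays did not (-0.203 to 0.138). Same-numbered arrays of a condition also shared a scan, so the replicate number was taken to pair arrays within a condition, and the fit with it as a block is given where it moved a list's count by over 1.5 times or changed the call of a gene whose adjusted p is printed. Members and gene lists were chosen with earlier results of these data known. Named genes were the 15 with the largest difference on each side and the same sign in both pairs, the marker and sorting genes, up to 8 members of each list with the largest differences and their named partners, and the 5 largest changes between virgin and pregnant mice on each side. Further list members, named where a list's calls are given in full or as reference points, were chosen after their values were seen. Promoters are those of RefSeq, matched by symbol. Some list members count in the totals but are not reported here by name. Alternatives covered the source of the ratios, background, normalization, filters, probe choice, blocks, the arrays in the fit and leaving out each array.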

Additional observations from a re-analysis of the deposited data

Results flagged for a closer look

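The P4 minus P6 difference changed between virgin and pregnant mice, by limma's interaction test with Benjamini-Hochberg adjustment over all genes, for 15 of the genes named. The 5 largest changes on each side were named because they passed this test, so the count is largely fixed by that choice. Over all genes tested 70 passed (0.296%). Virgin minus pregnant, the change was 5.66 for Stc2 (adjusted p = 0.00071), 3.55 for Adcy7 (0.00186), 3.5 for Cldn10 (0.0139), 3.48 for Fibin (0.0462) and 3.47 for Aldh1a1 (0.00186). It was 2.96 for Lgr5 (0.0027), 2.8 for Pappa (0.0027) and 2.42 for Lox (0.0181); the Lgr5 and Pappa calls were lost with the scanner's log ratios, the series table and median centring (adjusted p up to 0.965 and 0.283). On the other side it was -4.18 for Krt19 (0.0247), -3.99 for Scd1 (0.0139), -3.96 for Lep (0.00573), -3.63 for Ppp1r12b (0.0216) and -3.61 for Tnni2 (0.0206). Bambi gave -1.79 (0.0103) and Rarb -2.22 (0.0103). No alternative run is given for the changes of Lox, Bambi and Rarb. Median centring ended the calls of Stc2, Adcy7, Cldn10, Fibin, Aldh1a1, Scd1, Ppp1r12b and Tnni2. The first pregnant replicates were also scanned apart from the virgin arrays. Populations of 2 arrays were not examined for outlying arrays.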

How the results depend on the processing

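Of the 2456 genes called, all passed with the replicate block too, which called 5183 (2743 higher in P4, 2440 higher in P6); slide as a block called 5006 (2679 and 2327) and scan as a block 5184 (2743 and 2441). Median centring in place of loess called 1029 (509 and 520), and local backgrounds as given left 579 higher in P6, so that 65.9% of calls were higher in P4 against 47.2%. Leaving out 1 array called 1304 to 1669 genes in all, 562 to 730 higher in P4 and 742 to 974 higher in P6. Genes whose difference changed with pregnancy numbered 70, and 18 with the scanner's log ratios, 13 with the series table, 4 with median centring, 671 with the replicate block, 256 with slide and 670 with scan as a block, and 12 to 27 with 1 array left out. The causes were not tested; leaving out an array also lowers the residual degrees of freedom, and the lone array is then assumed to vary like the other groups.

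Of the 223 named genes called, median centring ended the call of 56, local backgrounds as given of 33 and the scanner's log ratios of 19, the reversed ones included. The Ccl11 difference reversed to 0.01 with the scanner's log ratios and with the series table. With local backgrounds as given, the called gene Sfrp1 turned to 0.07, and the uncalled Cdh11, Col14a1, Col4a1, Gpx3, Ntf3 and Ptprc to 0.04, 1.15, 0.06, 0.14, 0.51 and -0.14. Col4a2 turned to -0.02 with median centring. With 1 array left out, some uncalled differences changed sign: Col14a1 ran from -0.53 to 0.08, Col4a1 from -0.81 to 0.29, Col4a2 from -0.44 to 0.62, Fabp4 from -0.15 to 0.48 and Igf1r from -0.02 to 1.57. Genes near the background in a population are limited by signal, and 25 genes called were below it on both P6 arrays and 46 on both P4 arrays.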
